A study of Rattus norvegicus with 27 samples.

Results

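A set of 10 genes of cyclic AMP production and of protein kinase A were followed through 3 culture stages of primary rat Schwann cells, the glia that ensheathe and myelinate axons in peripheral nerves. They were taken by name from a table of 17315 genes: the receptor gene *Adgrg6*, the G protein gene *Gnas*, the adenylyl cyclase genes *Adcy3*, *Adcy6*, *Adcy7* and *Adcy9*, and the kinase subunit genes *Prkaca*, *Prkacb*, *Prkar1a* and *Prkar2b*. The table gave rows for 8 of these 10 genes. *Adgrg6* and *Adcy9* are not analysed here. *Adcy7* did not pass the filter on low counts, so 7 of the 10 were tested.

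All cells were purchased rat Schwann cells used at passages 3 to 5, and each stage had 3 libraries that the labels call biological replicates. The undifferentiated stage was kept free of dbcAMP (dibutyryl cyclic AMP, an analogue that crosses the cell membrane), and the labels say nothing more of their medium at the end of the experiment. Differentiated cells were held in 1 mM dbcAMP for 72 h in a medium with 1% serum, after a night of low serum. Dedifferentiated cells had the same 72 h of dbcAMP and then 72 h without it in a complete medium that held 10% serum, neuregulin at 10 ng/mL and forskolin. Forskolin is a plant compound that switches on most adenylyl cyclases, so the withdrawal stage lacked the added analogue while its medium held a stimulator of the cells' own cyclic AMP production. Stage, serum, neuregulin and forskolin therefore cannot be told apart. The labels do not say whether replicates came from separate cultures, and p-values measure only the spread between these libraries.

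Cyclic AMP is made from ATP by adenylyl cyclases. Most of them sit in the plasma membrane and are switched on by the stimulatory G protein alpha subunit encoded by *Gnas* when a coupled receptor is engaged. In Schwann cells the adhesion receptor encoded by *Adgrg6* (also called Gpr126) is known to raise cyclic AMP and to be needed for the onset of myelination. The main sensor of cyclic AMP is protein kinase A, a complex of catalytic subunits held silent by regulatory subunits; cyclic AMP binds the regulatory subunits and frees the catalytic ones. Culture with cyclic AMP analogues or forskolin has long been used to bring cultured Schwann cells to express myelin genes.

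The 9 libraries held 10058735 to 16212278 estimated counts, and 3 counts, the smallest number taken as a usable level, correspond to 0.185 to 0.298 CPM (counts per 1e6 of the library total). Of 10 Schwann cell markers 9 were in the table, and all 9 were above 1 CPM on average at every stage, *Sox10* at 1339 ± 123, 1045 ± 74.7 and 1458 ± 116 CPM in undifferentiated, differentiated and dedifferentiated cells (SD, n = 3). The 8 fibroblast markers summed to 24544 to 29246, 12690 to 16484 and 16351 to 19898 CPM at these stages, a sum made largely by *Col1a1* and *Col1a2*. Of these 8 markers 4 were above 1 CPM on average at each stage: besides the collagen pair, *Pdgfrb* averaged 136, 674 and 321 CPM and *Col3a1* 53.2, 92.0 and 147 CPM at the 3 stages. The other four were low, with *Lum* at 0 in every library, *Dcn* at 0.0654 to 0.475, *Pdgfra* at 0.259 to 0.546 and *Thy1* at 0.895 to 0.993 CPM on average. Macrophage markers summed to at most 5.09, endothelial markers to at most 8.26 and muscle and pericyte markers to at most 11.1 CPM, with *Aif1*, *C1qa*, *Cdh5* and *Rgs5* at 0 throughout. The neuron markers summed to 119 to 284, 497 to 641 and 171 to 208 CPM, nearly all from *Nefm*, while *Snap25* averaged at most 0.0902 CPM; the part of these markers in the results was not tested.

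Among the tested members under dbcAMP, the gene for the stimulatory G protein fell and 2 cyclase genes rose. The regulatory genes *Prkar1a* and *Prkar2b* of protein kinase A moved in opposite directions, while the catalytic subunit genes had the smallest log2 changes. Differentiated against undifferentiated cells, 6 of the 7 tested genes were called (edgeR quasi-likelihood test, Benjamini-Hochberg adjusted p under 0.05), 3 higher and 3 lower. The background is high, since 59.3% of all 10372 genes tested were called in this comparison, 31.5% higher and 27.9% lower. All 7 members, and 66.3% of all genes, had libraries that separated completely between these stages. On withdrawal, dedifferentiated against differentiated cells, 5 of 7 were called against a background of 46.1%, each in the direction opposite to its change under dbcAMP. The 2 members that rose face 23.1% of all genes, the 3 that fell face 23%, and the 6 of 7 without overlap of libraries face 58.5%. Dedifferentiated against undifferentiated cells, 2 of 7 were called, *Gnas* lower and *Adcy6* higher, against a background of 29.2% of all genes called, 16% higher and 13.2% lower. Libraries 1 and 2 of each stage were sequenced in one project and library 3 in another. With the first project alone 5, 5 and 1 of 7 members were called in the 3 comparisons. In that fit 4341, 2609 and 1284 of all 10371 genes tested were called, fewer than with all libraries. The second project holds 1 library a stage, too few for a value of its own. The 3 comparisons share libraries, so the return of a gene after withdrawal is not independent of its change under dbcAMP. The median log2 change of the 7 genes was -0.22, 0.14 and -0.09 in the 3 comparisons, beside 0.05, -0.01 and 0.02 over all genes tested. In such bulk samples, fewer cells that express a gene and less of its RNA per cell cannot be told apart.

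**Figure D1:**
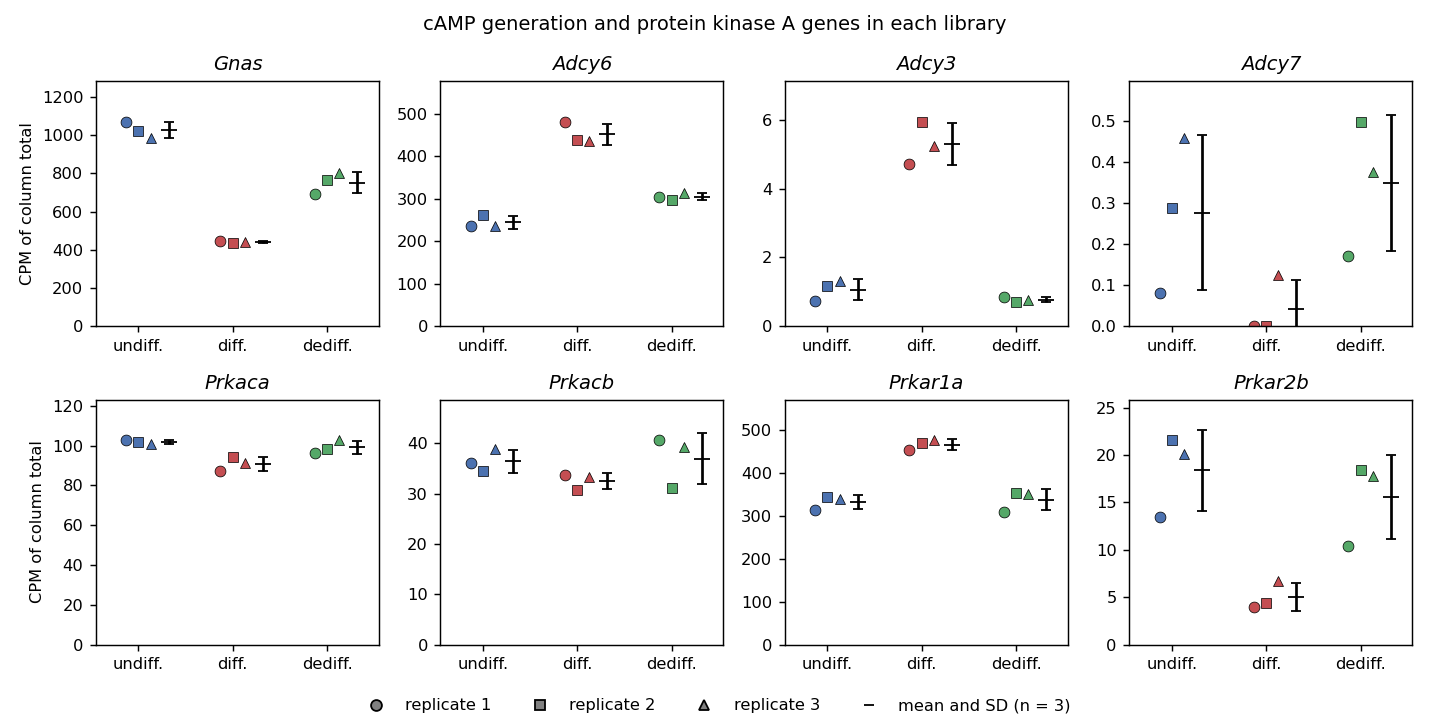
CPM of the column total (vertical axes, each from 0 and with its own scale) for the 8 genes in the table, by stage; symbols are the replicates and bars the mean with SD (n = 3, the lower bar of *Adcy7* in differentiated cells is cut at 0). *Gnas* and *Prkar2b* were lowest and *Adcy6*, *Adcy3* and *Prkar1a* highest in all 3 differentiated libraries, while *Prkaca* and *Prkacb* stayed within a narrow range.

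*Gnas* encodes the stimulatory alpha subunit that couples receptors to adenylyl cyclase. It measured 1070.1, 1023 and 986 CPM in the undifferentiated libraries 1 to 3, 448, 436 and 438 CPM in the differentiated and 693, 764 and 800.0 CPM in the dedifferentiated libraries. The stages did not overlap: every differentiated library was below every dedifferentiated one, and these were all below the undifferentiated ones. *Gnas* fell by 1.28 on the log2 scale under dbcAMP (SE 0.0888; edgeR adjusted p = 2.97e-07), which left 0.411 of the undifferentiated level after scaling for library composition. On withdrawal it rose by 0.78 on the log2 scale (SE 0.0880; edgeR adjusted p = 3.14e-05). It stayed lower than in undifferentiated cells, with a log2 difference of -0.50 (SE 0.0875; edgeR adjusted p = 0.00136). These 3 calls held under all 19 alternative fits, with adjusted p of at most 0.000197, 0.00594 and 0.0257.

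The *Gnas* locus is known as an imprinted locus with several first exons, and the gene row adds up whatever transcripts the annotation joins under that name. RefSeq lists 3 start sites for rat *Gnas* in assembly GRCr8, and the 250 bases before each are shown because the single count cannot tell them apart. Capitals mark the GC box, GGGCGG or its reverse complement, a binding sequence of Sp-family factors that occurred on either strand in 30.5% of all 33469 such windows. The windows lie on the plus strand at chr3:183489398-183489647, chr3:183502993-183503242 and chr3:183537089-183537338 and held 1, 0 and 3 GC boxes.
Gnas start 1: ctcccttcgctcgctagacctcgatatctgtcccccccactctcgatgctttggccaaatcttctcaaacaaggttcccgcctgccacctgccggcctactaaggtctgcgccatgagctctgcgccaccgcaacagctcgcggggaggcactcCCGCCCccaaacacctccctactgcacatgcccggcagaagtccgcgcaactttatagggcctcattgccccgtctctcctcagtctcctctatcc
Gnas start 2: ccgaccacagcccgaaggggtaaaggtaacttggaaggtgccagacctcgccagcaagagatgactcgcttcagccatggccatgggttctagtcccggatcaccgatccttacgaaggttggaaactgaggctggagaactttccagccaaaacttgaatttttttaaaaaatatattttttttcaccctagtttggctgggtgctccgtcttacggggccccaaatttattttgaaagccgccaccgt
Gnas start 3: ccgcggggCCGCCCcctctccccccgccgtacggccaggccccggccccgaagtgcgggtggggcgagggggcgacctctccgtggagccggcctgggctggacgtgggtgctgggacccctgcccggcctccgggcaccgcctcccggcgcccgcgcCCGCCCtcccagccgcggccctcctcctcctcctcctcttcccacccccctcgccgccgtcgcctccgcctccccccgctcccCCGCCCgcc
None of these windows held the full cyclic AMP response element TGACGTCA, found in 1.59% of all windows, or its half-site TGACG on either strand, found in 18.2%; every full element contains half-sites, so these counts overlap. A match or its absence describes the letters of a window and not the binding of a factor.

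*Adcy6*, a cyclase that calcium inhibits, measured 236, 261 and 234 CPM in undifferentiated libraries 1 to 3, 480.5, 438 and 435 CPM in differentiated and 304, 296 and 312 CPM in dedifferentiated libraries. Each stage occupied its own range. *Adcy6* rose 1.77-fold under dbcAMP, 0.83 on the log2 scale (SE 0.0845; edgeR adjusted p = 7.05e-06), and fell by 0.56 on the log2 scale on withdrawal (SE 0.0841; edgeR adjusted p = 0.000276). Dedifferentiated cells remained 1.21-fold above undifferentiated cells (log2 change 0.27, SE 0.0842; edgeR adjusted p = 0.0322). This last call was lost in 9 of 19 alternative fits, 5 of which left out a single library of these 2 stages (undifferentiated replicate 1 or 3, or any dedifferentiated library, adjusted p from 0.061 to 0.115). The 3 libraries of each stage did not overlap, as was so for 43.9% of all genes in this comparison.

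*Adcy3*, a cyclase best known from olfactory neurons, was scarce at every stage. It had 9, 12 and 20 counts in undifferentiated libraries 1 to 3, or 0.725, 1.15 and 1.31 CPM. Differentiated libraries held 64, 77 and 85 counts, or 4.72, 5.94 and 5.24 CPM, and dedifferentiated libraries 10, 7 and 10 counts, or 0.848, 0.696 and 0.752 CPM. All differentiated libraries were above all others, and the remaining stages overlapped. *Adcy3* rose by 2.24 on the log2 scale under dbcAMP (SE 0.301; edgeR adjusted p = 6.28e-05) and fell by 2.76 on the log2 scale on withdrawal (SE 0.318; edgeR adjusted p = 3.8e-05). The low-count filter asks for 3 libraries of any stage at 0.772 CPM or more, which *Adcy3* reached in 2 undifferentiated, 3 differentiated and 1 dedifferentiated library; like the other tested members, it would have passed without the libraries of any single stage. Dedifferentiated against undifferentiated cells the log2 change was -0.52 with a 95% interval of -1.30 to 0.27 (edgeR adjusted p = 0.313).

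*Adcy7*, a cyclase common in blood cells, was barely detected. It had 1, 3 and 7 counts in undifferentiated, 0, 0 and 2 in differentiated and 2, 5 and 5 in dedifferentiated libraries. Pooled over each stage, 11 counts in undifferentiated cells faced 2 in differentiated cells, a ratio of differentiated to undifferentiated of 0.162 with an exact 95% interval of 0.0175 to 0.742 that covers counting error only. All libraries but one had 5 counts or fewer. Dedifferentiated cells had 12 pooled counts, 7.30 times the differentiated level after allowing for depth (exact 95% interval 1.62 to 67.1, counting error only).

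The tested cyclases outside the 10 members also changed in both directions. *Adcy5*, closely related to *Adcy6*, measured 272, 288 and 279 CPM in undifferentiated, 30.1, 41.4 and 48.05 in differentiated and 169, 161 and 178 in dedifferentiated libraries 1 to 3. It fell by 2.87 on the log2 scale under dbcAMP (SE 0.135; edgeR adjusted p = 1.60e-08) and rose by 2.10 on withdrawal (SE 0.132; edgeR adjusted p = 3.81e-07). *Adcy5* and *Adcy6* thus moved in opposite directions in both comparisons, with no overlap between any stages of either gene. *Adcy8*, a cyclase that calcium and calmodulin stimulate, had 24.0, 14.8 and 15.5 CPM in undifferentiated libraries. In differentiated libraries 1 to 3 it had 2, 0 and 3 counts, or 0.147, 0 and 0.185 CPM, and in dedifferentiated libraries 12.1, 5.87 and 5.27 CPM. Its 5 pooled counts in differentiated cells against 689 in undifferentiated cells gave a ratio of 0.00647 (exact 95% interval 0.00209 to 0.0152, counting error only), and edgeR called the fall (adjusted p = 2.45e-06). It rose on withdrawal (edgeR adjusted p = 3.25e-05) and stayed lower than in undifferentiated cells by 1.27 on the log2 scale (SE 0.351; edgeR adjusted p = 0.0206).

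*Adcy1*, also stimulated by calcium and calmodulin, went the other way. It measured 7.41, 13.5 and 17.3 CPM in undifferentiated, 27.3, 29.2 and 37.3 in differentiated and 27.7, 34.8 and 37.9 in dedifferentiated libraries 1 to 3. It rose by 1.24 on the log2 scale under dbcAMP (SE 0.247; edgeR adjusted p = 0.00159). The log2 change on withdrawal was 0.11 (edgeR adjusted p = 0.728), and dedifferentiated cells were above undifferentiated cells by 1.35 (SE 0.248; edgeR adjusted p = 0.00261). Of the 6 further cyclase genes listed, the other three stayed below the filter: *Adcy4* had no count in any library, and *Adcy2* and *Adcy10* had at most 0.54 CPM in any library. Together 3 tested cyclase genes rose under dbcAMP, *Adcy6*, *Adcy3* and *Adcy1*, and 2 fell, *Adcy5* and *Adcy8*. Over all genes tested 31.5% were called higher and 27.9% lower in this comparison.

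**Figure D2:**
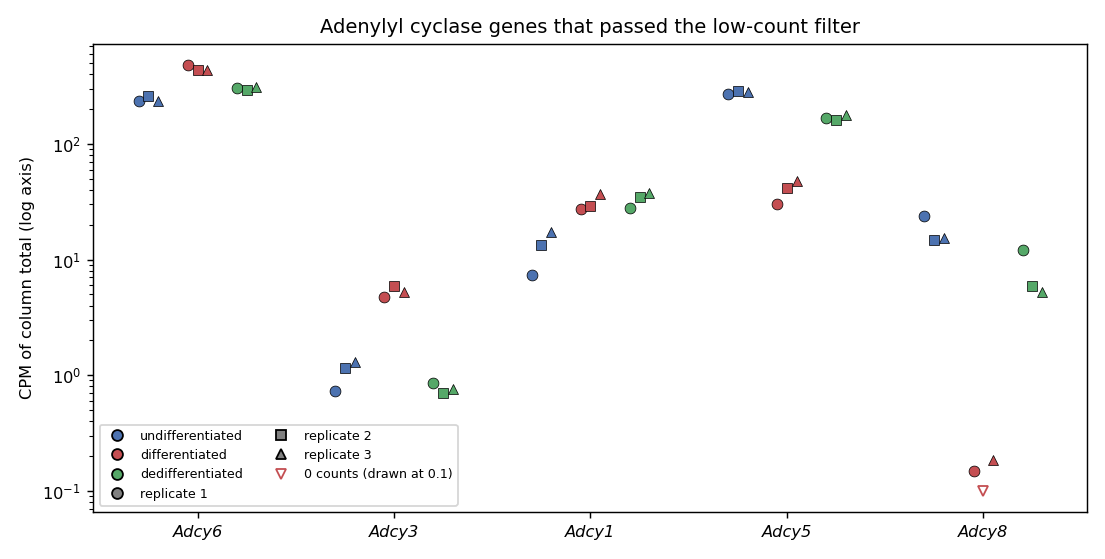
CPM of the column total (log axis) for the 5 adenylyl cyclase genes that were tested, by stage and replicate; counts are not divided by transcript length, so heights compare stages within a gene and not genes. *Adcy6*, *Adcy3* and *Adcy1* were higher and *Adcy5* and *Adcy8* lower in differentiated than in undifferentiated libraries, and the *Adcy8* library with 0 counts is drawn at 0.1.

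The catalytic subunit genes of protein kinase A showed the smallest changes under dbcAMP among the 7 tested genes. *Prkaca*, which encodes the alpha form, measured 103, 102 and 101 CPM in undifferentiated, 87.2, 94.2 and 91.3 in differentiated and 96.4, 98.5 and 103 in dedifferentiated libraries 1 to 3. All differentiated libraries were below all others. The log2 change under dbcAMP was -0.23 (SE 0.0704; edgeR adjusted p = 0.0160), or 0.855 of the undifferentiated level. This call was lost in 4 of 19 alternative fits: with library size alone (adjusted p = 0.0666), with replicates 1 and 2 alone (0.111), without differentiated replicate 1 (0.0515) and without differentiated replicate 3 (0.0517). On withdrawal the log2 change was 0.14 (95% interval -0.02 to 0.29; edgeR adjusted p = 0.128), and against undifferentiated cells -0.09 (-0.24 to 0.07; adjusted p = 0.391).

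*Prkacb*, the beta form, measured 36.0, 34.4 and 38.9 CPM in undifferentiated, 33.7, 30.8 and 33.4 in differentiated and 40.6, 31.1 and 39.2 in dedifferentiated libraries 1 to 3. Differentiated libraries were all below undifferentiated ones, and dedifferentiated libraries overlapped both. Its log2 changes were -0.22 (95% interval -0.47 to 0.02; edgeR adjusted p = 0.11), 0.19 (-0.05 to 0.44; 0.178) and -0.03 (-0.27 to 0.22; 0.885) in the 3 comparisons. The intervals leave room for a change under dbcAMP of about the size found for *Prkaca*. Without dedifferentiated replicate 2 the first and second of these passed the threshold (edgeR adjusted p = 0.0402 and 0.0418), and the first also did when only the 2 stages compared were fitted (0.0484).

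The regulatory subunit genes among the members, *Prkar1a* and *Prkar2b*, moved further, and against each other. *Prkar1a*, the widely expressed type I alpha subunit, measured 312, 343 and 339 CPM in undifferentiated, 452, 469 and 475 in differentiated and 309, 352 and 349.6 in dedifferentiated libraries 1 to 3. All differentiated libraries were above all others, and the remaining stages overlapped. *Prkar1a* rose 1.35-fold under dbcAMP (log2 change 0.43, SE 0.0783; edgeR adjusted p = 0.000613) and fell by 0.45 on the log2 scale on withdrawal (SE 0.0784; edgeR adjusted p = 0.00069). Against undifferentiated cells the log2 change after withdrawal was -0.03 (95% interval -0.20 to 0.15; edgeR adjusted p = 0.837).

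*Prkar2b*, the type II beta subunit known from brain and fat, measured 13.5, 21.5 and 20.1 CPM in undifferentiated, 3.9, 4.40 and 6.72 in differentiated and 10.4, 18.4 and 17.8 in dedifferentiated libraries 1 to 3. Replicate 1 was the lowest library of every stage, yet all differentiated libraries lay below all others. *Prkar2b* fell by 1.92 on the log2 scale under dbcAMP (SE 0.273; edgeR adjusted p = 0.000117), to 0.264 of the undifferentiated level, and rose 3.10-fold on withdrawal (log2 change 1.63, SE 0.274; edgeR adjusted p = 0.000653). Against undifferentiated cells the log2 change was -0.29 (95% interval -0.85 to 0.28; edgeR adjusted p = 0.438). For both regulatory genes the calls under dbcAMP and on withdrawal held in all 19 alternative fits, with adjusted p of at most 0.0308 and 0.0322 for *Prkar1a* and 0.00211 and 0.00853 for *Prkar2b*.

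**Figure D3:**
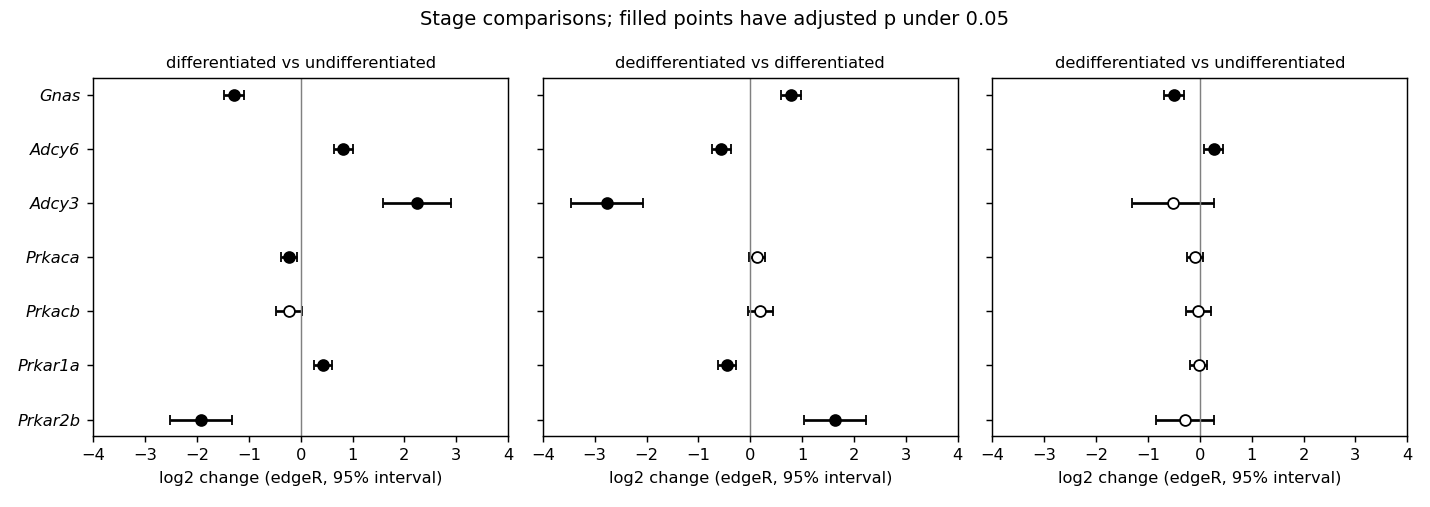
Log2 changes of the 7 tested genes (horizontal axes) in the 3 stage comparisons with 95% intervals from the edgeR fit; filled points had an adjusted p under 0.05. *Prkar1a* and *Prkar2b* lie on opposite sides of 0 under dbcAMP and on withdrawal, as do *Gnas* and *Adcy6*, and only *Gnas* and *Adcy6* are filled in the comparison of dedifferentiated with undifferentiated cells.

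The promoters of *Prkaca* and *Prkar1a* are shown because these partners in 1 complex moved in opposite directions under dbcAMP. The fall of *Prkaca* was small (log2 change -0.23), and its call was lost in 4 of 19 alternative fits. RefSeq had windows for 8 of the 10 members. In *Prkaca* (GRCr8, chr19:41083190-41083439, minus strand, shown 5′ to 3′ on the gene's strand) capitals mark 2 half-sites of the cyclic AMP response element, which begin 193 and 79 bases before the start; its window also holds 3 GC boxes, left in lower case. In *Prkar1a* (GRCr8, chr10:95120287-95120536, plus strand) capitals mark 5 GC boxes, and no half-site was found.
Prkaca: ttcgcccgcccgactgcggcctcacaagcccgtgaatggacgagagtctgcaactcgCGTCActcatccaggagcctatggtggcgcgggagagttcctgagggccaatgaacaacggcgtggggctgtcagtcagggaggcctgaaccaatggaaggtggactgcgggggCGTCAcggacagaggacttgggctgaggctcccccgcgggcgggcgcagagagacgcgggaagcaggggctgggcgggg
Prkar1a: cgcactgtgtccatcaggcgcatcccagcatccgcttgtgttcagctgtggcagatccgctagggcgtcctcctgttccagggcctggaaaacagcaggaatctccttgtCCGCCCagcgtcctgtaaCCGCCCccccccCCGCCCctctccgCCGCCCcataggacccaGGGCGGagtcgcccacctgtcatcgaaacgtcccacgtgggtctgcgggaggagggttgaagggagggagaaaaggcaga
Neither window held the full element TGACGTCA, and half-sites stood in 18.2% of all windows, so their presence in *Prkaca* is a description of its letters. The windows of *Prkar2b*, which fell further than *Prkaca*, and of *Prkacb* held no half-site, like those of *Gnas*.

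Ratios between subunits within a library do not depend on how libraries are scaled to each other. The log2 ratio of *Prkar1a* to *Prkar2b* counts was 4.20 ± 0.292 before dbcAMP, 6.58 ± 0.382 with it and 4.48 ± 0.353 after its withdrawal (SD, n = 3 at each stage). The ratio was thus 5.19-fold higher in differentiated than in undifferentiated cells and 4.28-fold lower after withdrawal than before it, with no overlap of libraries (exact two-sided permutation p = 0.1 for each, the smallest that 3 libraries against 3 allow). Between dedifferentiated and undifferentiated cells its means differed by 0.28 on the log2 scale and its libraries overlapped (exact permutation p = 0.4). The ratio of *Prkaca* to *Prkacb* differed between stages by no more than 0.05 on the log2 scale in size, beside SDs of 0.0987 to 0.211 within stages (exact permutation p = 0.9, 0.8 and 0.8). The summed counts of *Prkaca* and *Prkacb* were also set over those of *Prkar1a* and *Prkar2b*, leaving out *Prkar2a* and *Prkar1b*. The regulatory sum was mostly *Prkar1a*, which averaged 332, 466 and 337 CPM at the 3 stages, beside 18.4, 5.01 and 15.5 for *Prkar2b*. The log2 ratios of these sums were -1.34 ± 0.0956, -1.93 ± 0.0188 and -1.37 ± 0.148 at the 3 stages (SD, n = 3), where longer transcripts weigh more. This ratio was 0.663 as high in differentiated as in undifferentiated cells and 1.47-fold higher after withdrawal than before it (exact permutation p = 0.1 for both, the smallest possible).

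**Figure D4:**
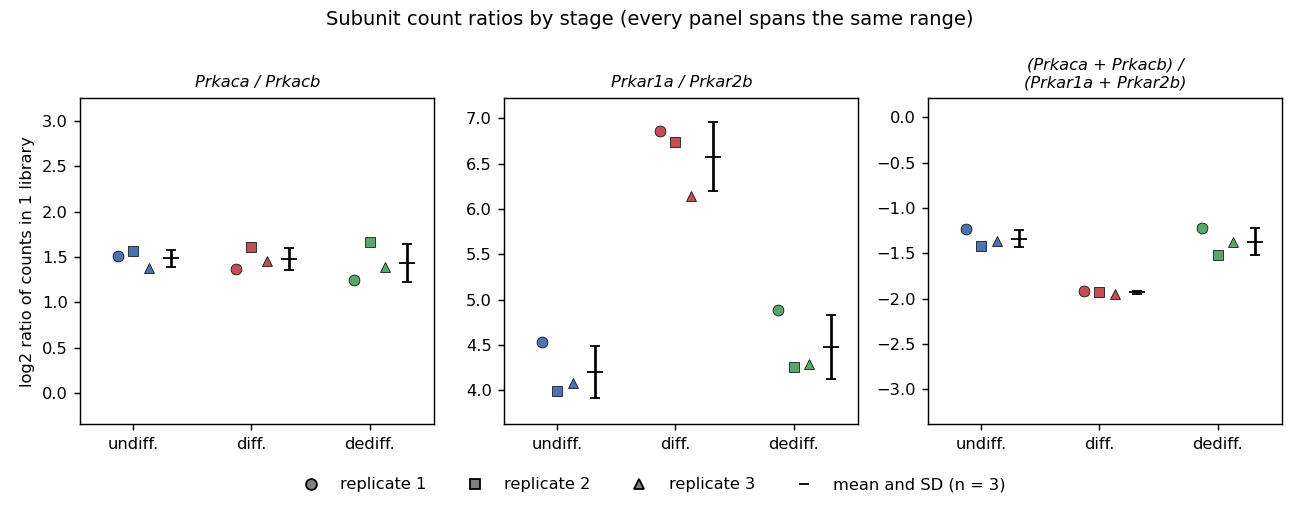
Log2 ratios of counts within each library (vertical axes, every panel spanning the same range) for subunit genes of protein kinase A by stage, with the mean and SD (n = 3). The ratio of *Prkar1a* to *Prkar2b* stood at 6.58 in differentiated cells against 4.20 and 4.48 at the other stages, while the ratio of *Prkaca* to *Prkacb* overlapped at all stages.

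Among the remaining subunits and inhibitors of the kinase, 4 of 5 listed genes were tested, and 1 was called under dbcAMP, where 59.3% of all genes were: *Pkig*, a gene for a peptide inhibitor of the catalytic subunit, which fell by 0.35 on the log2 scale (SE 0.122; edgeR adjusted p = 0.0276). *Prkar2a*, the other type II regulatory gene, measured 35.2, 38.0 and 38.8 CPM in undifferentiated libraries 1 to 3. It measured 40.5, 39.8 and 44.3 CPM in differentiated and 32.2, 35.2 and 39.3 CPM in dedifferentiated libraries. Its log2 changes were 0.09, -0.21 and -0.12 in the 3 comparisons (edgeR adjusted p = 0.407, 0.0884 and 0.395). *Prkar1b* and the inhibitor gene *Pkia* were not called in any comparison, and none of the 4 genes was called on withdrawal or against undifferentiated cells. On withdrawal 46.1% and against undifferentiated cells 29.2% of all genes were called. *Pkib* had no count in any library. The 3 medians of the list were -0.06, -0.04 and -0.02.

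Anchoring proteins place protein kinase A in the cell. Of 16 listed genes 12 were tested, and under dbcAMP 2 rose and 7 fell, with a median log2 change of -0.31, beside 31.5% higher, 27.9% lower and a median of 0.05 over all genes. *Akap6*, which anchors the kinase at the nuclear envelope of muscle cells, measured 54.4, 68.2 and 67.7 CPM in undifferentiated and 2.36, 1.62 and 1.85 in differentiated libraries 1 to 3, and 45.9, 33.5 and 37.1 after withdrawal. It fell by 5.08 on the log2 scale (SE 0.184; edgeR adjusted p = 2.20e-09) and rose by 4.33 on withdrawal (SE 0.184; edgeR adjusted p = 2.34e-08). *Akap13*, which also activates the GTPase RhoA, fell by 1.18 (edgeR adjusted p = 5.20e-07) and rose by 0.46 on withdrawal (edgeR adjusted p = 0.00122). *Akap2* and *Akap1*, the second of which sits on mitochondria, rose by 0.57 and 0.45 under dbcAMP and fell by 0.86 and 0.41 on withdrawal. On withdrawal 7 anchors rose and 2 fell (23.1% and 23% of all genes), and against undifferentiated cells 0 were called higher and 3 lower (16% and 13.2%).

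The list of other G protein genes, which includes *Ric8* genes that do not encode G proteins themselves, split in both directions. Of 22 listed genes 21 were tested, 8 rose and 12 fell under dbcAMP, and the median log2 change was -0.30, again beside 31.5% higher and 27.9% lower over all genes. *Gnal*, whose product is the olfactory counterpart of the *Gnas* product and also stimulates adenylyl cyclase, went from 1.37, 0.961 and 0.851 CPM in undifferentiated to 25.7, 22.1 and 22.9 CPM in differentiated libraries 1 to 3 and to 3.73, 3.98 and 1.96 CPM after withdrawal. It rose by 4.41 on the log2 scale (SE 0.289; edgeR adjusted p = 1.90e-07) where *Gnas* fell, and fell by 2.87 on withdrawal (SE 0.253; edgeR adjusted p = 4.92e-06). *Gng7*, a gamma subunit gene known to partner the *Gnal* product in striatal neurons, rose by 5.18 under dbcAMP (SE 0.294; edgeR adjusted p = 6.27e-08) and was still higher than in undifferentiated cells by 3.46 after withdrawal (edgeR adjusted p = 1.15e-05). *Gnai1*, which encodes an inhibitory alpha subunit, rose by 1.89 on the log2 scale under dbcAMP (SE 0.129, edgeR adjusted p = 2.60e-07). Its log2 change on withdrawal was -0.20 (edgeR adjusted p = 0.200). In dedifferentiated cells it was 3.23-fold higher than in undifferentiated cells (log2 change 1.69, SE 0.129; edgeR adjusted p = 3.98e-06). *Gna12* and *Gng11* fell by 0.52 and 0.82 on the log2 scale under dbcAMP.

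Receptors listed as coupling to the stimulatory G protein were mostly too low to test, with 4 of 20 passing the filter, and some are known mainly for other signalling. Of these 4, 2 rose under dbcAMP and 0 fell, where 31.5% of all genes rose and 27.9% fell; 1 of the 4, *Lgr5*, passed the filter only through the differentiated libraries, where it was high, so the count supports nothing about the list. *Lgr5* is known as a receptor for R-spondins in Wnt signalling rather than as a source of cyclic AMP. It had 10 pooled counts in undifferentiated and 1967 in differentiated cells, a ratio of 175 with an exact 95% interval of 95.1 to 366 for counting error only. Of 15 receptors listed as coupling to inhibitory G proteins 9 were tested, 7 rose under dbcAMP and 1 fell, beside the same shares over all genes (31.5% and 27.9%). 1 of the 9 passed the filter only through the undifferentiated libraries. *Lpar1*, a lysophosphatidic acid receptor, rose by 2.41 on the log2 scale (SE 0.0975; edgeR adjusted p = 4.76e-09), and *Gpr37*, a receptor found in glia, by 3.62 (SE 0.243; edgeR adjusted p = 8.62e-07). The one that fell was *Adgrg1*, an adhesion receptor better known for acting through other G proteins, which changed by -2.46 (SE 0.137; edgeR adjusted p = 5.30e-08) and rose by 2.00 on withdrawal (edgeR adjusted p = 6.14e-07).

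Downstream and in the breakdown of cyclic AMP, 11 of 16 phosphodiesterase genes were tested, 5 rose and 3 fell under dbcAMP, and 3 rose and 7 fell on withdrawal, where 59.3% and 46.1% of all genes were called. 1 of these 11 passed the filter only through the differentiated libraries and is kept in these counts, so they support nothing about the list. *Pde7b* averaged 0.961, 107 and 2.61 CPM in undifferentiated, differentiated and dedifferentiated cells. It rose by 6.68 on the log2 scale under dbcAMP (SE 0.169, edgeR adjusted p = 3.76e-10). After withdrawal it was still above undifferentiated cells by 1.36 (SE 0.222, edgeR adjusted p = 0.000857). *Pde10a* rose by 2.72 (SE 0.124; edgeR adjusted p = 1.10e-08) and *Pde1c*, a calcium-dependent enzyme, fell by 3.34 on the log2 scale (SE 0.109; edgeR adjusted p = 1.22e-09). *Pde10a* and *Pde1c* returned on withdrawal, by -2.96 and 3.34. Of 10 listed other effectors and carriers of cyclic AMP 5 were tested, 1 of which passed the filter only through the dedifferentiated libraries, and 0 rose and 2 fell under dbcAMP (31.5% and 27.9% of all genes). *Abcc4*, a pump that exports cyclic AMP, fell by 0.87 (SE 0.131; edgeR adjusted p = 0.000142). Of 13 CREB proteins, their coactivators and the salt-inducible kinases that restrain those coactivators, 10 were tested, and 2 rose and 2 fell under dbcAMP, again beside 31.5% and 27.9% of all genes. *Sik3*, one of those kinases, fell by 1.35 (SE 0.138; edgeR adjusted p = 7.49e-06) and *Creb3*, a membrane-bound factor of the endoplasmic reticulum, by 0.62 (SE 0.103; edgeR adjusted p = 0.000324).

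**Figure D5:**
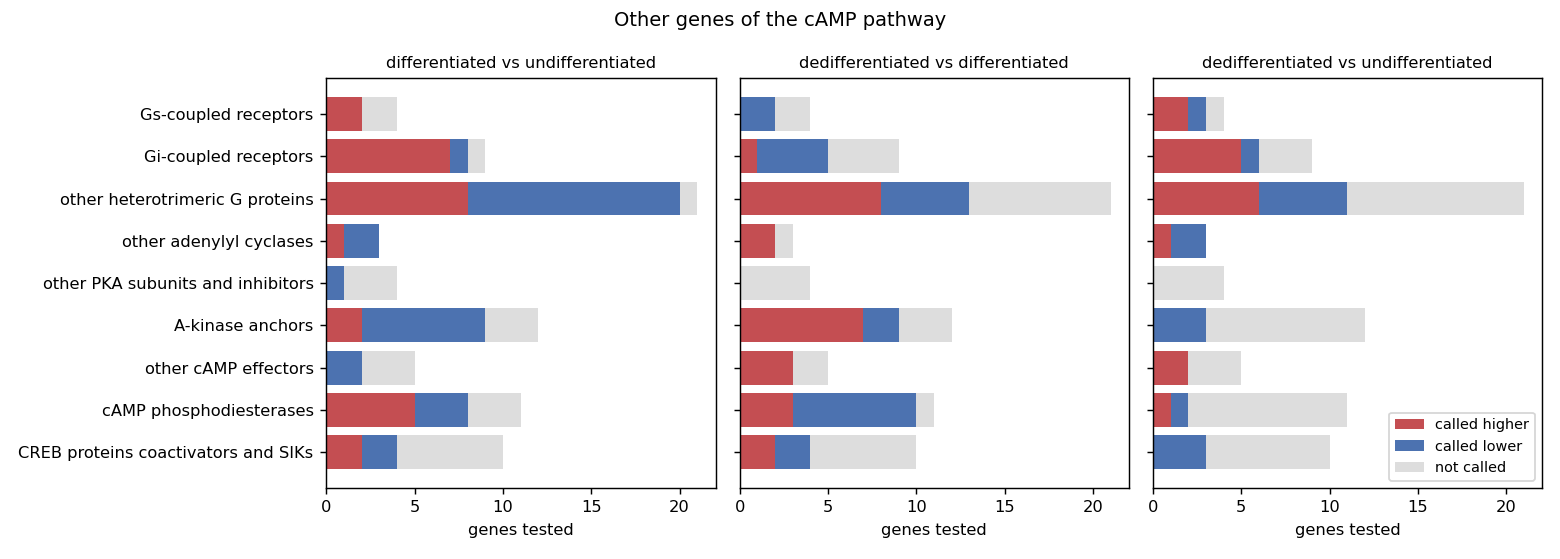
Number of tested genes (horizontal axes) called higher, called lower or not called in each list of other cyclic AMP pathway genes, for the 3 stage comparisons (edgeR, adjusted p under 0.05). Under dbcAMP 57 of the 79 tested genes were called, where 59.3% of all genes were. The counts include genes that passed the filter only through the libraries of 1 stage. The lists hold 3 to 21 tested genes each and were not tested against each other.

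Over all these lists, 79 of 123 genes were tested. Under dbcAMP 27 were called higher and 30 lower, on withdrawal 26 higher and 22 lower, and against undifferentiated cells 17 higher and 16 lower. Of the 79 genes 57, 48 and 33 were thus called in the 3 comparisons, where 59.3%, 46.1% and 29.2% of all tested genes were. Of these 79, 1 passed the filter only through undifferentiated, 2 only through differentiated and 1 only through dedifferentiated libraries. The counts include them, so they describe the lists and support nothing further.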

How the data were processed

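For cell mRNA the authors deposited a table of estimated counts, one row a gene; per the submitters' processing notes Salmon was among the tools, and its version, the genome build and the annotation are not given in the sources used here. Columns were matched to samples by library code and stage. Testing used whole numbers after rounding, which altered 1.15% of the entries. Levels are CPM of column totals. The low-count filter was filterByExpr (minimum count 10). Counts were scaled by TMM and tested with edgeR 4.0.16 in R 4.3.3 (robust quasi-likelihood fit over all 9 libraries, no covariates; SE from the F statistic; Benjamini-Hochberg over 10372 genes, threshold 0.05). Ratios within libraries were compared by exact permutation. The fit was tested on simulated data. Alternatives included DESeq2 1.42.0. Extracellular vesicle counts were not used.

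The members and lists were chosen with earlier results of these data known. All 10 members are named; of other lists, up to 2 called genes per direction and comparison with the smallest p and no overlap of libraries could be named. A further step, naming genes that follow *Adgrg6*, was not run because that gene had no row. *Adcy2*, *Adcy4*, *Adcy10*, *Prkar1b*, *Prkar2a*, *Pkia* and *Pkib* were named afterwards to complete their families. Promoter windows and motifs come from RefSeq (GRCr8).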

Additional observations from a re-analysis of the deposited data

How the results depend on the processing

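Of 396 log2 changes of single members under the alternative fits, 375 kept their direction and their side of the threshold, 13 lost a call, 3 gained one and 5 changed sign; no called change reversed. The sign changes were in dedifferentiated against undifferentiated cells, at values near 0: *Prkacb* at 0.0217 with library size alone, 0.00154 without undifferentiated replicate 3 and 0.0517 without dedifferentiated replicate 2 (range without single libraries -0.123 to 0.0517), and *Prkar1a* at 0.0231 with library size alone and 0.00993 without dedifferentiated replicate 1 (range -0.0890 to 0.00993). In that comparison 1 member in place of 2 was called with replicates 1 and 2 alone, with DESeq2 size factors, with TMM without the 10 most abundant genes and with no filter, and 1 to 2 when single libraries were left out, *Adcy6* being the one lost; the cause was not tested. Against undifferentiated cells 2251 to 3053 of all genes were called when single libraries were left out. Leaving out single libraries gave 5 to 7 members called under dbcAMP, beside 5547 to 6383 of all genes. It gave 5 to 6 on withdrawal, beside 3902 to 5178 of all genes. It moved the log2 ratio difference of *Prkaca* to *Prkacb* between -0.0719 and 0.0476 under dbcAMP, -0.161 and 0.0469 on withdrawal and -0.166 and 0.0416 against undifferentiated cells, and that of catalytic to regulatory counts in the last comparison between -0.107 and 0.0410.

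The replicate numbers were checked for pairing: 7 of 9 same-numbered pairs of libraries deviated together with a correlation over 0.1 (mean 0.175, lowest 0.028), and 15 of 18 comparisons of a library with another stage matched best its own number, a hint from the data only. With the replicate block 6, 5 and 2 members were called, as without it, and 61, 47 and 34 pathway genes in place of 57, 48 and 33. Over all 10372 genes tested the block gave 6323, 5035 and 3292 calls in place of 6152, 4782 and 3026. Ratio differences under the block could not go below an exact p of 0.25. Between same-numbered libraries the log2 ratio of *Prkar1a* to *Prkar2b* was higher in dedifferentiated than in undifferentiated cells by 0.35, 0.27 and 0.22 (exact p = 0.25 under the block). Depth limits *Adcy7* and *Adcy3*, which rest on few counts.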
